A study of Mus musculus with 92 samples.

Results

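The glutathione peroxidases and the targets of NRF2 described here are 10 genes out of the 29956 named genes of the deposited table. Gpx1, Gpx3 and Gpx4 encode glutathione peroxidases, and Slc7a11, Gclm, Txnrd1, Srxn1, Prdx1, Hmox1 and Nqo1 are antioxidant genes known as targets of the transcription factor NRF2. All 10 were found in the table by their gene names. Gpx3 was chosen by its fall in macrophages carrying a guide against Adar1, so its levels in those macrophages and in their controls are given as a description with no test. The contrast of Adar1 KO with control macrophages is treated in the same way for every gene of the group, and so is the difference between their responses to baricitinib, which holds that contrast.

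Glutathione peroxidases are selenium-dependent or related enzymes that reduce hydrogen peroxide and lipid hydroperoxides with electrons from glutathione, whose supply depends on cystine uptake and on glutamate-cysteine ligase. NRF2, encoded by Nfe2l2, is held at low levels by KEAP1, and on oxidative or electrophilic stress it binds antioxidant response elements with small MAF proteins, sites at which BACH1 can repress the same genes. Macrophages and microglia produce reactive oxygen species during phagocytosis and take up heme iron from dying red cells, and this system protects them from both.

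RNA was measured by bulk sequencing in mouse myeloid cells on the FVB background. The study asked how ER-Hoxb8 cells compare with primary bone marrow cells as a source of macrophages and of microglia-like cells (MLCs), and what loss of the RNA editing enzyme ADAR1 does to them. ER-Hoxb8 cells are myeloid progenitors immortalized by a retroviral Hoxb8 fused to the estrogen receptor, which keeps them as progenitors while estradiol is present. All 92 libraries enter here. The deposited values are log2 CPM (counts scaled to a common library size), and they form 6 sets of libraries, each with its own lowest value, so that values were compared only within a set.

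The bone marrow set of 12 libraries held wild-type bone marrow (BM) progenitors (n = 3), wild-type BM monocytes (n = 3), and ER-Hoxb8 progenitors and cells after 4 days of differentiation, both heterozygous for Cas9 (n = 3 each). The brain set of 27 libraries held macrophages differentiated in M-CSF for 7 days from wild-type bone marrow (BMD macrophages, n = 3) and from Cas9 heterozygous ER-Hoxb8 cells (n = 3). It also held MLCs, which are donor cells injected into the brains of newborn Csf1r-/- mice and sorted back out, from wild-type bone marrow (BMD MLCs, n = 6) and from ER-Hoxb8 cells labelled wild-type (n = 6; names starting GFPHox for replicates 1 to 3 and WTHox for 4 to 6), and microglia from wild-type mice that received no injection (n = 9). Because the ER-Hoxb8 macrophages and MLCs also differ in their labelled genotype, Cas9 and life in the brain cannot be told apart there.

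Edited cells were Cas9 heterozygous ER-Hoxb8 cells carrying a non-targeting control guide (NTC) or either of 2 Adar1 guides, sorted as pools of transduced cells and not as clones. The edited set of 11 libraries held NTC progenitors (n = 3), NTC macrophages replicates 1 and 3, and progenitors and macrophages with sgRNA 1 (n = 3 each). NTC macrophages replicate 2 had a lowest value of its own, and the sgRNA 2 set of 8 libraries (3 of progenitors, 5 of macrophages) had no NTC library. The baricitinib set of 33 libraries held NTC and Adar1 KO (sgRNA 1) macrophages grown for 7 days with 0, 0.0006, 0.016, 0.4 or 10 uM baricitinib, a JAK inhibitor, in 3 libraries a group and in 4 for NTC at 0.016 and 0.4 uM and for KO at 10 uM. The treatment protocol gives the third dose as 0.16 uM and the lowest as 0.00064 uM. The read depth of single libraries was not used here; between 9592 and 11708 genes stood above 1 CPM in a library.

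Windows of 300 bases around gene starts (250 before, 50 after; RefSeq, GRCm38.p6) were available for 9 of the 10 genes, all but Hmox1. The antioxidant response element core TGACNNNGC, searched on both strands, was found in the windows of 4 of them (Srxn1, Gclm, Prdx1 and Txnrd1), against 13.99% of 27025 genes. Counted by window, 4 of the 14 windows of these genes held it (28.57%), against 12.4% of all 32851 windows. In each of the 4 the match lay on the strand opposite to the gene, so the capitals mark the 9 bases whose complement reads as the core. The stretches are shown because these are the genes whose levels are followed below as NRF2 targets. All 4 genes lie on the + strand: Srxn1 at chr2:152105527-152105573 with the match from base 28 after the start, Gclm at chr3:122245398-122245456 from base -134, Prdx1 at chr4:116685441-116685499 from base -133, and Txnrd1 at chr10:82859089-82859147 from base -92. A match of these letters describes the window and does not show that NRF2 binds there.
Srxn1: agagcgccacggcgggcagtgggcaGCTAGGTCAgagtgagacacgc
Gclm: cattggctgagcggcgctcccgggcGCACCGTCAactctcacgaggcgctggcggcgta
Prdx1: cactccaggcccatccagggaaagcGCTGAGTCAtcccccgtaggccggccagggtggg
Txnrd1: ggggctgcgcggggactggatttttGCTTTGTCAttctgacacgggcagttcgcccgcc

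Several libraries stood apart from the rest of their groups. Among ER-Hoxb8 progenitors, the summed level of 6 progenitor markers (most abundant Mpo) was 72.3 CPM in replicate 1 and 29.0 CPM in replicate 2 against 2856 CPM in replicate 3, while 6 macrophage markers (most abundant Cd68) reached 1867, 4043 and 431 CPM. Microglia replicate 8 had a mean Spearman rho of 0.767 to its group, with summed neuron, oligodendrocyte and astrocyte markers (6 genes each) of 145, 679 and 834 CPM. Microglia replicate 9 held macrophage markers at 17919 CPM, against 2815 to 7173 CPM in the other microglia libraries. The library names of replicates 8 and 9 start with YSWT and those of the other microglia with WT, and the labels do not say how they differ. Adar1 KO macrophages at 0.4 uM replicate 2 had a rho of 0.908. BM monocytes, enriched with a magnetic kit, still held progenitor markers at 5071 to 7962 CPM, beside 4 monocyte markers at 8970 to 11207 CPM. Endothelial markers (5 genes) summed to 239 CPM in Adar1 KO macrophages at 0.4 uM replicate 2 and to 73.6 and 68.5 CPM in the other 2 libraries of that group. ER-Hoxb8 MLCs replicate 6 held monocyte markers (most abundant Ccr2) at 6591 CPM, against 218 to 663 CPM in the other 5 libraries of its group. BMD macrophages replicate 3 held monocyte markers at 1441 CPM, against 73.7 and 45.6 CPM in replicates 1 and 2, whose library names start differently. Its border macrophage markers (5 genes) summed to 1344 CPM against 366 and 285 CPM. Its levels of Gpx1, Gpx3, Hmox1 and Nqo1 also lay apart from replicates 1 and 2, as given below. The BMD macrophage means of these genes depend on this library. In the bone marrow set 6 neutrophil markers (most abundant Ngp in BM cells) summed to 316, 9979 and 4325 CPM in BM progenitors and to 507, 9596 and 4323 CPM in BM monocytes, against at most 38.3 CPM in ER-Hoxb8 progenitors, and their part in the results of that set was not tested.

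The MLCs also carried markers of other cells, although the sort took CD45+ CD11b+ cells, a gate that neutrophils pass. The study's gating legend for microglia and transplanted cells also lists GFP. Summed over 6 neutrophil markers (most abundant Ngp), BMD MLCs reached 7969, 4771, 31491, 34282, 34104 and 32980 CPM. The ER-Hoxb8 MLCs reached 821, 263 and 368 CPM in the GFPHox libraries and 20339, 44402 and 3610 CPM in the WTHox libraries, microglia lay between 439 and 6443 CPM, and macrophages grown in vitro in the brain set lay between 3.21 and 38.5 CPM. Macrophage markers also set the GFPHox libraries (5881, 4227 and 3310 CPM) apart from the WTHox libraries (2374, 1738 and 2177 CPM), and the labels do not say how the 2 kinds differ. Erythroid markers (8 genes) reached 7708 CPM in ER-Hoxb8 MLCs replicate 5, 7766 CPM in microglia replicate 5 and 3985 to 5393 CPM in BM progenitors. The part of these markers in the results below was not tested, and in bulk libraries fewer cells of a type and less RNA per cell cannot be told apart.

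Gpx3 encodes the secreted glutathione peroxidase of plasma. In NTC macrophages of the edited set its level was 6.31 and 6.28 log2 CPM, and in sgRNA 1 macrophages it was 0.74, 0.70 and 1.08 log2 CPM. The groups did not overlap, and the difference of means was -5.46 log2, or 44.0-fold. This is the contrast on which Gpx3 was selected. In the baricitinib set without drug, Gpx3 stood at 2.17, 2.25 and 1.52 log2 CPM in NTC macrophages and at 0.28, 0.75 and -0.12 log2 CPM in KO macrophages. These groups did not overlap either, with a difference of -1.68 log2 (3.20-fold). Levels of the edited set and the baricitinib set are on different scales and were not compared.

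The other genes of the group were closer together in the same contrast, again as a description. Slc7a11 was higher in sgRNA 1 than in NTC macrophages by 1.43 log2 (2.70-fold, no overlap), and Gpx1 differed by -0.16 log2 with overlapping libraries. Gclm (0.74 log2), Prdx1 (0.63), Hmox1 (0.48) and Txnrd1 (0.40) were also higher with no overlap, and Gpx4 (0.05) and Srxn1 (0.02) overlapped. Nqo1, below 1 CPM in these libraries, differed by -1.07 log2 with no overlap. Without drug in the baricitinib set, Slc7a11 was higher in KO by 1.23 log2 and Gpx1 differed by -1.15 log2, both with no overlap. There Hmox1 differed the other way (-0.54 log2), and it overlapped, as did Gclm (0.02), Prdx1 (0.09), Txnrd1 (-0.01), Gpx4 (0.11) and Srxn1 (0.19). Nqo1 differed by -0.72 log2 with no overlap, with all KO libraries at the lowest value. The guide's target, Adar, had a mean of 7.04 log2 CPM in sgRNA 1 and 5.70 in NTC macrophages, and since small insertions and deletions need not lower a transcript, this level does not measure the loss of the protein. In the baricitinib set its mean was 6.77 in KO and 4.92 log2 CPM in NTC macrophages without drug. At 10 uM the order was the reverse, with 2.16 in KO and 3.52 log2 CPM in NTC macrophages. At 0.4 uM KO replicate 2 stood at 7.38, against 4.12 and 4.21 log2 CPM in the rest of its group. Border macrophage markers (5 genes) are a list that includes the scavenger receptor Cd163. They summed to 250 to 368 CPM in sgRNA 1 macrophages (most abundant F13a1) and to 1886 and 2343 CPM in the 2 NTC macrophage libraries of the same set. Other lists also separated these groups with no overlap. Macrophage markers were 4946 to 5536 against 7848 and 8817 CPM, and monocyte markers 859 to 1560 against 1672 and 2082 CPM. Neutrophil markers were 68.5 to 81.9 against 10.8 and 15.2 CPM, and endothelial markers 102 to 142 against 37.2 and 48.1 CPM. The part of these markers in the Gpx3 difference was not tested.

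**Figure D1:**
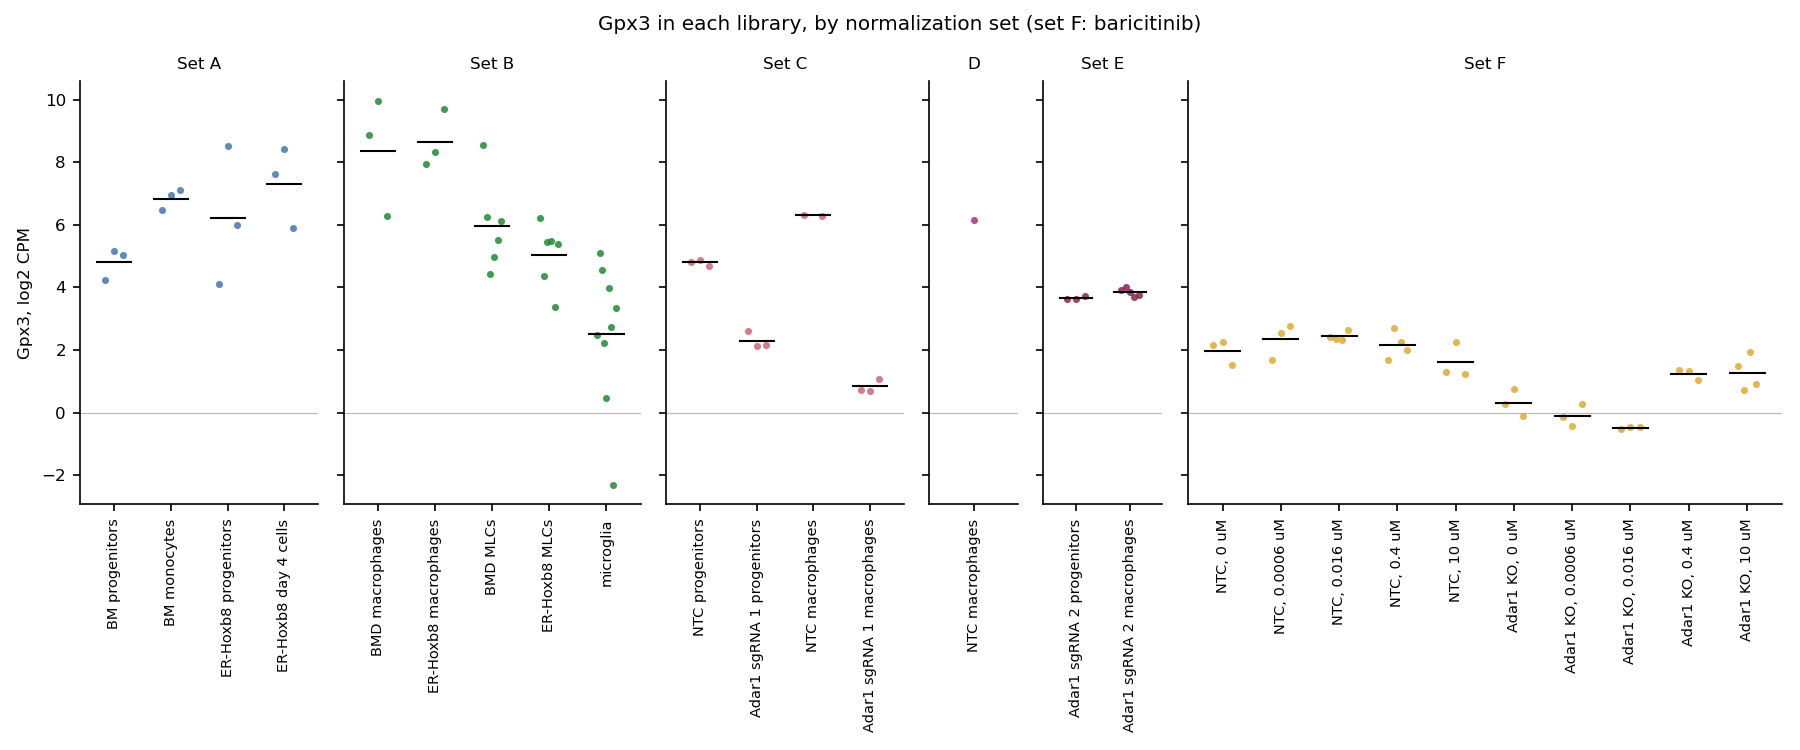
Gpx3 level (log2 CPM, vertical axis) in each library by group, with 1 panel for each set of libraries that share a lowest value (A bone marrow, B brain, C edited, D NTC macrophages replicate 2, E sgRNA 2, F baricitinib); points are libraries, bars are group means, and the line at 0 marks 1 CPM. In the edited set the sgRNA 1 macrophages lie between 0.70 and 1.08 and the NTC macrophages at 6.28 and 6.31, and in the brain set microglia spread from -2.31 to 5.09.

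Progenitors of the edited set were not used to choose Gpx3, although they are the same edited cells before differentiation. NTC progenitors had Gpx3 at 4.82, 4.88 and 4.70 log2 CPM, and sgRNA 1 progenitors at 2.61, 2.13 and 2.16 log2 CPM. All 3 sgRNA 1 libraries lay below all 3 NTC libraries. In limma's test Gpx3 fell by 2.50 log2 (SE 0.17, adjusted p = 5.33e-05), and the call held in 11 of 11 alternatives, including a block for the replicate number. That SE also takes in the spread of the macrophages of the set, which were used in the choice. Marker sums separated the same groups with no overlap: monocyte markers (most abundant Ly6c2) were 782 to 1087 CPM with sgRNA 1 and 1290 to 1503 CPM with NTC, border macrophage markers 152 to 244 and 273 to 375 CPM, and macrophage markers 182 to 196 and 210 to 287 CPM. Progenitor markers (most abundant Mpo) overlapped, but were lower with sgRNA 1 in each of the 3 replicate pairs (18168, 12397 and 12148 CPM against 25180, 19093 and 16844 CPM). The part of these markers in the Gpx3 change was not tested. The other tested genes of the group gave values between -0.80 log2 for Slc7a11 (adjusted p = 0.113) and -0.07 log2 for Prdx1 (adjusted p = 0.999), none past the test, except for Slc7a11 with the 2 groups fitted alone (adjusted p = 0.022, in a range of 0.022 to 0.433).

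Within the edited set, mean Gpx3 levels ran in the order NTC macrophages (6.30), NTC progenitors (4.80 ± 0.09, SD, n = 3), sgRNA 1 progenitors (2.30 ± 0.27, SD, n = 3) and sgRNA 1 macrophages (0.84 ± 0.21, SD, n = 3), and no neighbours in this order overlapped. From progenitors to macrophages the difference was 1.50 log2 with the NTC guide and -1.46 log2 with sgRNA 1, given without a test because the macrophages were used in the choice. With sgRNA 2 the picture was different. Progenitors stood at 3.64, 3.63 and 3.71 log2 CPM and macrophages at 3.91, 4.00, 3.84, 3.70 and 3.75 log2 CPM. The sgRNA 2 macrophages lay slightly above the progenitors by 0.18 log2, with libraries that overlapped, and no NTC library shares their set.

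Primary cells and their ER-Hoxb8 counterparts showed wide spreads of Gpx3. BM progenitors had 4.22, 5.16 and 5.03 log2 CPM, and BM monocytes had 6.46, 6.94 and 7.12. ER-Hoxb8 progenitors ran from 4.10 through 5.99 to 8.52 log2 CPM, and day 4 cells stood at 7.63, 8.43 and 5.89. In order of their means these groups were day 4 cells (7.32 ± 1.30), monocytes (6.84 ± 0.34), ER-Hoxb8 progenitors (6.20 ± 2.22) and BM progenitors (4.80 ± 0.51; SD, n = 3 each), and each neighbouring pair overlapped. Monocytes lay above BM progenitors in all 3 libraries by 2.04 log2, which did not pass the test (SE 0.92, adjusted p = 0.161). That SE takes in the spread of all 4 groups, the wide one of the ER-Hoxb8 progenitors included. Gpx3 passed when the 2 groups were fitted alone (adjusted p = 0.00136), without ER-Hoxb8 progenitors replicate 2 (0.0411) and without their replicates 1 and 2 (0.0166), in 3 of 13 alternatives with a range of 0.00136 to 0.428.

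In the brain set Gpx3 was high in cultured macrophages and lower in cells from the brain. BMD macrophages had 8.88, 9.97 and 6.27 log2 CPM and ER-Hoxb8 macrophages 7.93, 8.31 and 9.71 log2 CPM. BMD MLCs ran from 4.42 through a median of 5.81 to 8.55 log2 CPM, ER-Hoxb8 MLCs from 3.36 through 5.41 to 6.21, and microglia from -2.31 through 2.73 to 5.09. By their means the order was ER-Hoxb8 macrophages (8.65 ± 0.93), BMD macrophages (8.37 ± 1.90), BMD MLCs (5.97 ± 1.44), ER-Hoxb8 MLCs (5.04 ± 1.01) and microglia (2.51 ± 2.27), and every pair of neighbours had overlapping libraries.

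Gpx3 was lower in ER-Hoxb8 MLCs than in ER-Hoxb8 macrophages by a fitted change of -3.61 log2 (adjusted p = 0.0162), with no overlap. For BMD MLCs over BMD macrophages the change of -2.41 log2 did not pass (adjusted p = 0.109), except in 3 of 16 alternatives, with log2(CPM + 1) (0.0461), with the 2 groups alone (0.0496) and without microglia replicate 8 (0.0365), in a range of 0.0365 to 0.726, and the difference between the changes, -1.20 log2, did not pass either (adjusted p = 0.805). Both kinds of MLC had more Gpx3 than microglia, by 3.46 log2 for BMD MLCs (SE 0.85, adjusted p = 0.00367) and 2.54 log2 for ER-Hoxb8 MLCs (SE 0.85, adjusted p = 0.0213), with overlapping libraries in both cases. The first of these held in 22 of 22 alternatives. The call against macrophages was lost without ER-Hoxb8 macrophages replicate 3 (adjusted p = 0.0843, in a range over the alternatives from 0.00241 to 0.0843), with no filter, without ER-Hoxb8 MLCs replicates 4 and 5 and with their GFPHox libraries alone. The call for ER-Hoxb8 MLCs over microglia was lost without ER-Hoxb8 MLCs replicate 1 (adjusted p = 0.0501, in a range from 0.00967 to 0.13), with no filter and with either kind of ER-Hoxb8 MLC library alone. Border macrophage markers were higher in both kinds of MLC than in microglia, with no overlap. They summed to 1888 to 3490 CPM in BMD MLCs, 271 to 1245 CPM in ER-Hoxb8 MLCs and 18.4 to 171 CPM in microglia. Monocyte markers (455 to 1426, 218 to 6591 and 17.4 to 106 CPM in the same order) did not overlap either. The part of these markers in the differences from microglia was not tested.

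The dose series asked how KO and NTC macrophages respond to JAK inhibition. At 0.0006 uM, NTC macrophages had Gpx3 at 1.68, 2.56 and 2.77 log2 CPM by rising value, and KO macrophages at -0.44, -0.13 and 0.28. At 0.016 uM the 4 NTC libraries lay between 2.32 and 2.65 log2 CPM and the KO libraries at -0.52, -0.47 and -0.46. KO libraries lay below all NTC libraries at both doses, and the difference of -2.92 log2 at 0.016 uM was the largest of the 5 doses. At 0.4 uM, NTC ran from 1.69 to 2.69 log2 CPM and KO stood at 1.36, 1.34 and 1.03, still apart. At 10 uM, NTC macrophages had 1.31, 2.27 and 1.24 log2 CPM and KO macrophages 1.48, 0.73, 1.92 and 0.93. Only at this dose did the groups overlap, with a difference of -0.34 log2. These values carry no test, and 27 of the 33 libraries stood above 1 CPM for Gpx3.

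As a description, the genes most like Gpx3 over the 27 libraries of the brain set, by Pearson's r, were Stxbp2 (0.936), Plxnd1 (0.924), Amdhd2 (0.918), Rilpl2 (0.914) and Slc8b1 (0.908). Over the 33 libraries of the baricitinib set they were Pros1 (0.893), Galc (0.889), Cd163 (0.888), Hjurp (0.887) and Cfl1 (0.886). The libraries fall into groups, so these values mostly rank genes by the group means they share with Gpx3.

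Gpx1 encodes the cytosolic glutathione peroxidase. NTC progenitors had 11.36, 11.64 and 11.47 log2 CPM and NTC macrophages 10.40 and 10.50. With sgRNA 2, progenitors had 11.01, 10.82 and 10.73 log2 CPM and macrophages 9.57, 9.68, 9.63, 9.58 and 9.71. Macrophages lay below progenitors in every library of both comparisons. Gpx1 fell by 1.04 log2 with NTC (SE 0.15, adjusted p = 5.27e-05) and by 1.22 log2 with sgRNA 2 (SE 0.06, adjusted p = 1.83e-08), and the sgRNA 1 cells gave -0.93 log2 (SE 0.13, adjusted p = 4.98e-05).

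Without baricitinib, KO macrophages had Gpx1 at 9.43, 9.91 and 9.93 log2 CPM and NTC macrophages at 10.85, 10.99 and 10.87. At 10 uM the KO libraries stood at 10.86, 11.31, 11.13 and 10.71 log2 CPM and the NTC libraries at 10.87, 11.29 and 10.75. The KO libraries were low without drug and overlapped the NTC libraries at 10 uM. Gpx1 rose in KO macrophages by 1.25 log2 (SE 0.14, adjusted p = 1.89e-08), the NTC change was 0.07 log2 (adjusted p = 0.827), and the difference between these changes, a description, was 1.18 log2. Marker sums moved in the same comparison. In KO macrophages border macrophage markers (most abundant F13a1, with Cd163, Lyve1 and Pf4 below 1 CPM without drug) went from 282 to 426 CPM without drug to 1648 to 2201 CPM at 10 uM. Monocyte markers, of which F13a1 is also part, went from 739 to 781 to 1891 to 2418 CPM, and macrophage markers (most abundant Cd68) from 4785 to 5084 to 2563 to 3121 CPM. In NTC macrophages the border list went from 896 to 1122 to 1990 to 2199 CPM. The part of these markers in this and the other results with baricitinib was not tested. Along the doses the KO minus NTC difference was -1.15, -1.21, -1.14, -0.14 and 0.03 log2, with no overlap up to 0.016 uM and overlap at the higher doses. KO macrophages at 0.4 uM ran from 10.76 to 11.21 log2 CPM, and this group includes the library with the low rho. In the brain set Gpx1 did not pass between MLCs and macrophages (0.35 log2 for BMD cells, adjusted p = 0.536, and 0.48 log2 for ER-Hoxb8 cells, adjusted p = 0.373), nor between any of the other groups compared there. BMD macrophages had Gpx1 at 8.16, 8.05 and 10.20 log2 CPM against 8.73 to 9.39 log2 CPM in BMD MLCs. Replicates 1 and 2 lay below all BMD MLC libraries and replicate 3 lay above them, so the size of the BMD value depends on replicate 3.

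Gpx4 encodes the peroxidase that reduces lipid hydroperoxides within membranes and protects cells from ferroptosis. BMD macrophages had 8.60, 8.70 and 8.55 log2 CPM against 6.52, 6.87 and 7.18 (lowest, median, highest) in BMD MLCs. ER-Hoxb8 macrophages had 9.08, 8.56 and 8.85 log2 CPM against 6.30, 6.71 and 7.34 in their MLCs. Every MLC library lay below every macrophage library of its source. Gpx4 fell in BMD MLCs by 1.77 log2 (SE 0.36, adjusted p = 0.00056) and in ER-Hoxb8 MLCs by 2.07 log2 (SE 0.36, adjusted p = 8.9e-05). Microglia, which ran from 5.65 to 8.23 log2 CPM, did not differ from either MLC group in the test (adjusted p = 0.817 and 0.584).

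In edited cells Gpx4 was higher in macrophages. NTC progenitors stood at 8.50, 8.81 and 8.61 log2 CPM and NTC macrophages at 9.25 and 9.12, with no overlap. The rise was 0.55 log2 with NTC (SE 0.14, adjusted p = 0.00458), 0.71 log2 with sgRNA 1 (SE 0.13, adjusted p = 0.000332) and 0.69 log2 with sgRNA 2 (SE 0.05, adjusted p = 1.77e-07). Baricitinib moved it the other way. In KO macrophages Gpx4 was 9.14, 9.03 and 8.94 log2 CPM without drug and 8.01, 7.99, 8.07 and 7.96 at 10 uM, and in NTC macrophages 8.85, 8.94 and 9.00 without drug and 8.61, 8.69 and 8.64 at 10 uM. Libraries at 10 uM lay below those without drug in both genotypes. In KO macrophages Gpx4 fell by 1.03 log2 (SE 0.07, adjusted p = 1.01e-12) and in NTC macrophages by 0.28 log2 (SE 0.08, adjusted p = 0.0132), and the difference between the changes, given without a test, was -0.75 log2. The NTC call was lost without NTC replicate 3 at 0 uM (adjusted p = 0.0637) or replicate 1 at 10 uM (0.0569), and with quantile normalization, in a range of 0.00464 to 0.141 over the alternatives.

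Cystine for glutathione enters through the transporter encoded by Slc7a11. BM progenitors had 0.56, 0.54 and 0.86 log2 CPM and ER-Hoxb8 progenitors 9.37, 5.69 and 7.43. All ER-Hoxb8 libraries, the 2 with few progenitor markers included, lay far above all BM libraries. Slc7a11 rose by 6.84 log2 (SE 0.82, adjusted p = 0.000102), the largest fitted change of the group in any comparison, and the call held in 12 of 12 alternatives. Day 4 cells stood at 3.79, 5.75 and 6.36 log2 CPM and did not differ from the ER-Hoxb8 progenitors in the test (-2.20 log2, adjusted p = 0.497).

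Slc7a11 was lower in MLCs than in the cultured macrophages of the same source. BMD macrophages had 4.42, 5.08 and 4.08 log2 CPM against 2.52, 3.13 and 4.09 (lowest, median, highest) in BMD MLCs, and ER-Hoxb8 macrophages had 4.19, 5.65 and 7.47 log2 CPM against 2.26, 2.99 and 4.05 in their MLCs. The BMD groups touched at their edges and the ER-Hoxb8 groups did not overlap. Slc7a11 fell in ER-Hoxb8 MLCs by 2.72 log2 (SE 0.50, adjusted p = 0.000183), called in 18 of 18 alternatives, and in BMD MLCs by 1.34 log2 (SE 0.50, adjusted p = 0.0431), a call kept in 5 of 16 alternatives (adjusted p from 0.0173 to 0.221). Leaving out any single BMD macrophage library, or BMD MLCs replicate 1, 4, 5 or 6, ended it, with adjusted p values of 0.0922, 0.181 and 0.0593 for the macrophages by replicate and of 0.0638, 0.0777, 0.0802 and 0.0565 for the MLCs. Fits with no filter, quantile normalization or the replicate block, and without BMD MLCs replicates 3 to 6, ended it as well.

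Between progenitors and macrophages Slc7a11 fell with the NTC guide and rose with sgRNA 1. NTC progenitors had 5.25, 5.45 and 5.50 log2 CPM and NTC macrophages 4.26 and 3.88. With sgRNA 1, progenitors had 4.68, 4.55 and 4.57 log2 CPM and macrophages 5.93, 5.49 and 5.09. NTC macrophages were all below and sgRNA 1 macrophages all above their progenitors. The changes were -1.33 log2 (SE 0.21, adjusted p = 0.00016) and 0.90 log2 (SE 0.19, adjusted p = 0.0012), and their difference is given no test because it holds the contrast used in the choice of genes. With sgRNA 2 the change of -0.22 log2 did not pass (adjusted p = 0.138). KO macrophages without baricitinib had Slc7a11 at 6.41, 5.75 and 5.82 log2 CPM and at 10 uM 5.66, 3.99, 4.21 and 5.77, which overlap at their edges. It fell by 1.09 log2 (SE 0.35, adjusted p = 0.00869). The call was lost without KO replicate 1 at 0 uM (adjusted p = 0.0605) or KO replicate 2 at 10 uM (0.053), in a range of 0.00133 to 0.0605. The difference from the NTC change was -1.13 log2, as a description.

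Gclm encodes the modifier subunit of glutamate-cysteine ligase, the enzyme of the rate-limiting step of glutathione synthesis. NTC macrophages had 4.53, 4.67 and 4.40 log2 CPM without baricitinib and 5.73, 5.12 and 6.02 at 10 uM. KO macrophages had 4.66, 4.41 and 4.58 log2 CPM without drug, 4.76, 4.14 and 5.01 at 0.4 uM, and 6.78, 7.33, 6.43 and 7.02 at 10 uM. Libraries at 10 uM were higher than those without drug in both genotypes with no overlap, and the KO libraries at 10 uM were also above the NTC libraries at 10 uM. Gclm rose by 2.34 log2 in KO (SE 0.27, adjusted p = 2.3e-08) and by 1.09 log2 in NTC (SE 0.29, adjusted p = 0.0135) (the difference of 1.25 log2 is a description). The NTC call was lost without NTC replicate 3 at 0 uM (adjusted p = 0.0507) or replicate 1 (0.052) or 3 (0.0757) at 10 uM, in a range of 0.00565 to 0.0757.

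In NTC cells of the edited set Gclm fell from 6.16, 6.13 and 5.75 log2 CPM in progenitors to 4.03 and 4.12 in macrophages, a change of -1.94 log2 (SE 0.41, adjusted p = 0.00119). The sgRNA 1 cells went from 6.37, 5.57 and 5.62 log2 CPM to 5.85, 4.35 and 4.25, where macrophages replicate 1 overlapped the progenitors. Their change was -1.03 log2 (SE 0.37, adjusted p = 0.0244), called in 7 of 11 alternatives (adjusted p from 0.000122 to 0.135) and lost without progenitors replicate 1 (0.0995) or macrophages replicate 2 (0.0972) or 3 (0.102), and with no filter. With sgRNA 2, progenitors (4.84, 5.36 and 4.68) and macrophages (5.53, 4.71, 5.60, 5.37 and 5.14) overlapped, and Gclm did not pass (0.31 log2, adjusted p = 0.195), except without macrophages replicate 2 (adjusted p = 0.027, in a range of 0.027 to 0.572). In the brain set it fell from BMD macrophages (4.77, 5.50 and 5.34 log2 CPM) to BMD MLCs (2.42, 3.24 and 4.53, lowest, median and highest), a change of -1.88 log2 (SE 0.64, adjusted p = 0.0273). This was called in 11 of 16 alternatives (adjusted p from 0.00468 to 0.129) and lost without BMD macrophages replicate 2 (0.0914) or 3 (0.0934) or BMD MLCs replicate 6 (0.0551) or 3 to 6, and with no filter. For the ER-Hoxb8 cells -1.07 log2 did not pass (adjusted p = 0.196).

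The thioredoxin branch reduces peroxides through peroxiredoxins, and Txnrd1 encodes the cytosolic thioredoxin reductase that recharges it. BMD macrophages had 6.42, 6.93 and 6.24 log2 CPM against 1.27, 3.00 and 3.75 (lowest, median, highest) in BMD MLCs, and ER-Hoxb8 macrophages had 5.51, 6.15 and 6.15 against 3.32, 4.12 and 5.14 in ER-Hoxb8 MLCs. Neither pair overlapped. Txnrd1 fell by 3.71 log2 in BMD MLCs (SE 0.55, adjusted p = 2e-05) and fell by 1.79 log2 in ER-Hoxb8 MLCs (SE 0.55, adjusted p = 0.0146), and the second call was kept in 14 of 18 alternatives (adjusted p from 0.00293 to 0.0658) and lost without ER-Hoxb8 macrophages replicate 2 (0.0608) or 3 (0.0571), without ER-Hoxb8 MLCs replicates 4 and 5 and with their GFPHox libraries alone. The MLC groups differed by 1.33 log2 (SE 0.45, adjusted p = 0.0457), with overlapping libraries, and the highest value, 5.14, belonged to ER-Hoxb8 MLCs replicate 6, the library with many monocyte markers. This call was kept in 9 of 22 alternatives (adjusted p from 0.00464 to 0.566) and was lost without any single 1 of BMD MLCs replicates 2 to 6 or of ER-Hoxb8 MLCs replicates 1, 3 and 6, with adjusted p values of 0.0602, 0.116, 0.0779, 0.0717 and 0.0567 for the former and 0.0772, 0.0912 and 0.105 for the latter. It was also lost with no filter, with the 2 groups fitted alone, without BMD MLCs replicates 3 to 6 and with either kind of ER-Hoxb8 MLC library alone. The difference between the changes did not pass (1.93 log2, adjusted p = 0.205).

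Txnrd1 was higher in ER-Hoxb8 than in BM progenitors (5.94, 5.94 and 6.28 against 5.20, 4.68 and 4.71 log2 CPM), with no overlap and a rise of 1.19 log2 (SE 0.32, adjusted p = 0.0188) that was lost without BM progenitors replicate 2 (adjusted p = 0.0712) or 3 (0.074), with no filter and without ER-Hoxb8 progenitors replicates 1 and 2, in a range of 0.0132 to 0.074. It fell in NTC macrophages against progenitors by 0.75 log2 (SE 0.18, adjusted p = 0.00273) and rose in sgRNA 2 macrophages by 0.97 log2 (SE 0.12, adjusted p = 2.27e-05), while sgRNA 1 gave -0.17 log2 (adjusted p = 0.369). At 10 uM baricitinib, KO macrophages stood at 6.89, 7.10, 6.78 and 7.01 log2 CPM against 6.00, 5.67 and 5.91 without drug. NTC macrophages stood at 6.36, 6.21 and 6.66 against 5.79, 5.85 and 5.98. Drug and no-drug libraries were apart in both genotypes. The rises were 1.08 log2 in KO (SE 0.16, adjusted p = 8.37e-07) and 0.54 log2 in NTC (SE 0.17, adjusted p = 0.0313). The NTC call was kept in 7 of 12 alternatives (adjusted p from 0.0173 to 0.151) and lost without NTC replicate 1 (0.117) or 2 (0.0745) at 0 uM or replicate 1 (0.0648) or 3 (0.151) at 10 uM, and with no filter.

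Srxn1 encodes sulfiredoxin, which repairs overoxidized peroxiredoxins. ER-Hoxb8 progenitors had 5.41, 4.47 and 4.39 log2 CPM against 2.85, 1.65 and 2.17 in BM progenitors. These groups were apart, and Srxn1 rose by 2.53 log2 (SE 0.42, adjusted p = 0.00099) in 12 of 12 alternatives. BMD macrophages had 5.63, 6.02 and 5.37 log2 CPM and ER-Hoxb8 macrophages 5.27, 5.35 and 5.42. In contrast, BMD MLCs ran from 0.86 through 2.07 to 2.40 log2 CPM and ER-Hoxb8 MLCs from -1.99 through 1.39 to 3.36. All MLC libraries were below all macrophage libraries. Srxn1 fell by 3.88 log2 in BMD MLCs (SE 1.05, adjusted p = 0.00661) and by 4.12 log2 in ER-Hoxb8 MLCs (SE 1.05, adjusted p = 0.00385). Without BMD MLCs replicates 3 to 6, the libraries with the most neutrophil markers, the former was not called (adjusted p = 0.0742, in a range of 7.14e-05 to 0.0742).

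In edited cells Srxn1 rose from progenitors to macrophages by 0.77 log2 with NTC (SE 0.18, adjusted p = 0.0028), 1.08 log2 with sgRNA 1 (SE 0.17, adjusted p = 0.000107) and 1.45 log2 with sgRNA 2 (SE 0.09, adjusted p = 1.22e-07), with no overlap in any of the 3. Baricitinib at 10 uM gave 0.32 log2 in NTC (adjusted p = 0.28) and -0.15 log2 in KO macrophages (adjusted p = 0.466), and across the whole dose series the libraries stayed between 4.52 and 5.44 log2 CPM.

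Prdx1, a peroxiredoxin of the cytosol, separated cultured macrophages from all other cells of the brain set. BMD macrophages had 12.20, 12.66 and 11.64 log2 CPM and ER-Hoxb8 macrophages 11.44, 11.94 and 11.69. BMD MLCs ran from 8.19 through 8.26 to 8.69 log2 CPM, ER-Hoxb8 MLCs from 8.68 through 9.89 to 10.89, and microglia from 7.68 through 8.04 to 8.39. Every macrophage library was above every library from the brain, and ER-Hoxb8 MLCs were above all microglia. Prdx1 fell by 3.80 log2 in BMD MLCs (SE 0.30, adjusted p = 1.94e-09) and by 1.85 log2 in ER-Hoxb8 MLCs (SE 0.30, adjusted p = 4.84e-05). The difference between these changes passed at 1.96 log2 (SE 0.43, adjusted p = 0.00871), a call lost without BMD MLCs replicates 3 to 6 (adjusted p = 0.0502, in a range of 0.000439 to 0.0502). ER-Hoxb8 MLCs exceeded BMD MLCs by 1.48 log2 (SE 0.25, adjusted p = 0.000144) and microglia by 1.81 log2 (SE 0.23, adjusted p = 4.16e-07).

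**Figure D2:**
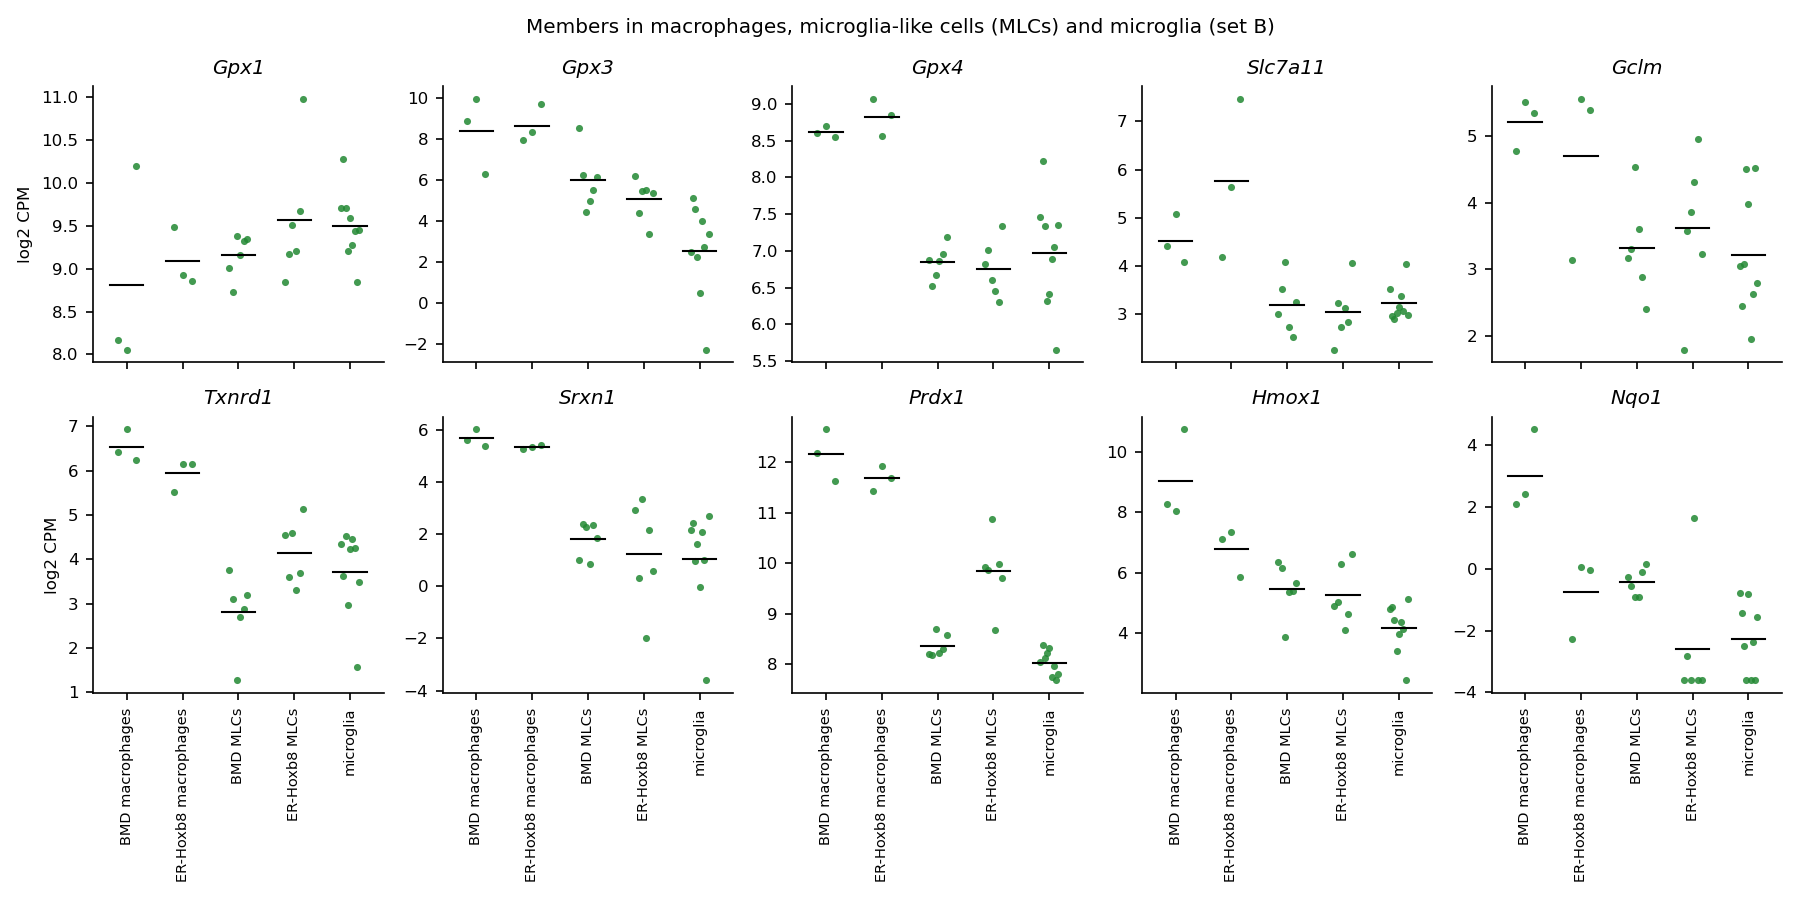
Levels (log2 CPM, vertical axes) of the 10 genes in the 27 libraries of the brain set, 1 panel a gene; points are libraries and bars are group means of BMD and ER-Hoxb8 macrophages, BMD and ER-Hoxb8 MLCs and microglia. For Prdx1 the macrophage libraries lie between 11.44 and 12.66 and all libraries from the brain lie at or below 10.89.

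Prdx1 was also higher in macrophages than in progenitors of every edited line. NTC progenitors had 8.53, 8.72 and 8.54 log2 CPM and NTC macrophages 12.01 and 11.70. The sgRNA 1 libraries stood at 8.55, 8.65 and 8.37 log2 CPM in progenitors and at 12.84, 12.49 and 12.13 in macrophages. No macrophage library came near a progenitor library. The rises were 3.26 log2 for NTC (SE 0.19, adjusted p = 2.99e-08), 3.96 log2 for sgRNA 1 (SE 0.17, adjusted p = 2.44e-09) and 3.72 log2 for sgRNA 2 (SE 0.05, adjusted p = 7.54e-13). Day 4 cells (11.36, 11.12 and 11.51 log2 CPM) lay above ER-Hoxb8 progenitors (8.25, 10.80 and 8.82), but 2.04 log2 did not pass (SE 0.51, adjusted p = 0.497). Day 4 and progenitor libraries of the same replicate number had r of 0.226, 0.372 and 0.426 between their deviations from the group means. The labels do not say whether they share a cell line, and a block for the replicate number gave no call. Without ER-Hoxb8 progenitors replicate 2, Prdx1 (2.80 log2, adjusted p = 0.000132) and Slc7a11 (-3.10 log2, adjusted p = 0.0211) passed, and without replicates 1 and 2, which leaves 1 library, Prdx1 (adjusted p = 0.00031), Gpx1 (0.0311) and Hmox1 (0.0339) passed, while over all alternatives the adjusted p of each ran up to 1. Baricitinib at 10 uM gave 0.18 log2 for Prdx1 in KO (adjusted p = 0.381) and 0.14 log2 in NTC macrophages (adjusted p = 0.69). With quantile normalization the KO value was 1.10 log2 and passed (adjusted p = 8.24e-06, in a range up to 0.829), so this value depends on the scaling.

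Hmox1 encodes heme oxygenase-1, which breaks heme down to biliverdin, iron and carbon monoxide. BM progenitors had 2.25, 4.75 and 4.05 log2 CPM and BM monocytes 5.89, 6.11 and 6.00. ER-Hoxb8 progenitors had 7.05, 7.47 and 4.69 log2 CPM, of which replicate 3 lay within the range of BM progenitors. Monocytes did not overlap BM progenitors. Hmox1 rose in monocytes by 2.32 log2 (SE 0.70, adjusted p = 0.0491), and this call near the limit was lost in 6 of 13 alternatives, with adjusted p values of 0.00617 to 0.199. Leaving out BM progenitors replicate 1 (0.199) or 3 (0.0995), or monocytes replicate 1 (0.106), 2 (0.126) or 3 (0.116), ended it, as did the fit with no filter. In ER-Hoxb8 over BM progenitors it rose by 2.72 log2 (SE 0.70, adjusted p = 0.0141), a call that ended without BM progenitors replicate 1 (0.0594) or ER-Hoxb8 progenitors replicate 1 (0.0572), with no filter, with the 2 groups fitted alone, and without ER-Hoxb8 progenitors replicates 1 and 2, which leaves that group 1 library, in a range of 0.000585 to 0.353. The neutrophil markers given above run in the same order as Hmox1 over the 3 BM progenitor libraries.

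Cultured macrophages had the higher Hmox1 in the brain set. BMD macrophages stood at 8.29, 8.06 and 10.75 log2 CPM and BMD MLCs at 3.87, 5.53 and 6.35 (lowest, median, highest). ER-Hoxb8 macrophages had 7.12, 7.36 and 5.87 log2 CPM against 4.10, 4.97 and 6.63 in ER-Hoxb8 MLCs. The BMD groups were apart and the ER-Hoxb8 groups overlapped. The highest BMD macrophage value, 10.75, belonged to replicate 3, which had more monocyte and border macrophage markers than replicates 1 and 2. The size of the BMD change depends on this library. Hmox1 fell by 3.56 log2 in BMD MLCs (SE 0.64, adjusted p = 0.00018), whereas -1.51 log2 in ER-Hoxb8 MLCs did not pass (adjusted p = 0.0664), nor did the difference between the changes (2.05 log2, adjusted p = 0.261). The ER-Hoxb8 value passed without macrophages replicate 3 (0.0468) or MLCs replicate 3 (0.0416) or 6 (0.0319), and without microglia replicate 8 (0.0407), which left the fold change as it was, in a range of 0.0319 to 0.242. Against microglia, Hmox1 in BMD MLCs was 1.29 log2 (adjusted p = 0.0563) and passed without BMD MLCs replicate 3 (0.0173) or microglia replicate 9 (0.0415), with quantile normalization (0.0381) and with the 2 groups alone (0.0349), in a range of 0.0173 to 0.143. In ER-Hoxb8 MLCs it was 1.08 log2 (adjusted p = 0.0816) and passed without ER-Hoxb8 MLCs replicate 4 (0.0408) or replicates 4 and 5 (0.0297), in a range of 0.0297 to 0.259.

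In edited cells Hmox1 rose with differentiation, from 5.51, 5.01 and 5.15 log2 CPM in NTC progenitors to 8.51 and 8.27 in NTC macrophages, and from 5.57, 4.70 and 4.64 to 8.94, 9.06 and 8.60 with sgRNA 1. Macrophages and progenitors were widely apart. The rises were 3.17 log2 (SE 0.26, adjusted p = 6.38e-07), 3.90 log2 (SE 0.23, adjusted p = 3.87e-08) and, with sgRNA 2, 2.71 log2 (SE 0.08, adjusted p = 2.24e-10). With 10 uM baricitinib, KO macrophages went from 8.36, 7.88 and 7.60 log2 CPM to 6.36, 6.28, 6.58 and 6.31, and NTC macrophages from 8.35, 8.48 and 8.62 to 7.97, 7.57 and 8.49. KO libraries at 10 uM lay below all others in that comparison. Hmox1 fell by 1.56 log2 in KO (SE 0.20, adjusted p = 1.08e-07), the NTC change was -0.48 log2 (adjusted p = 0.139; 0.0348 without NTC replicate 3 at 10 uM, in a range up to 0.528), and the difference between these changes was -1.09 log2, without a test. KO macrophages at 0.4 uM still had 7.87, 8.13 and 8.04 log2 CPM.

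**Figure D3:**
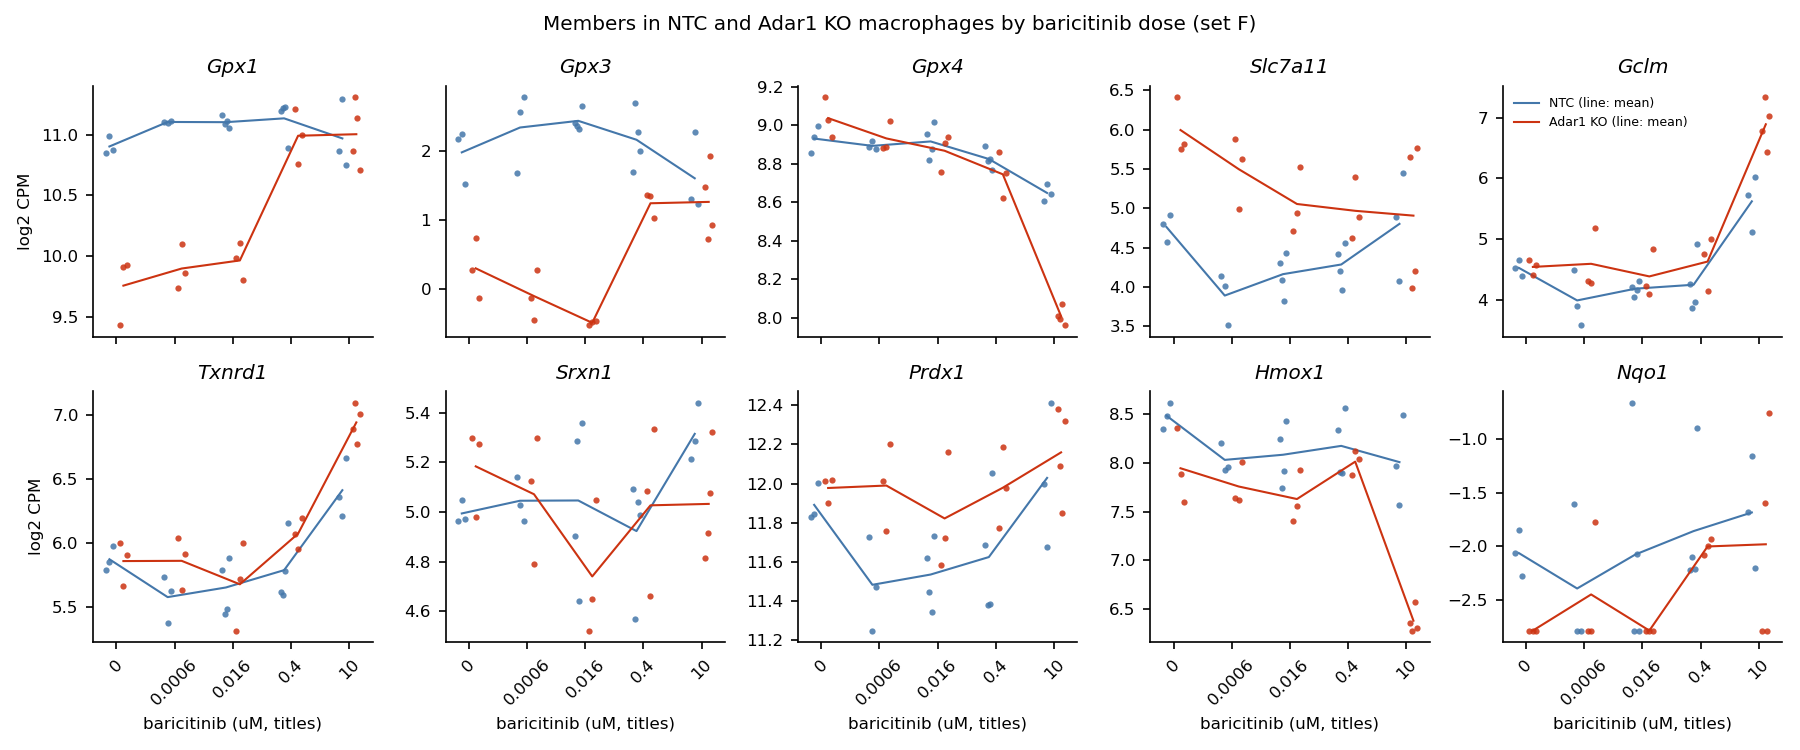
Levels (log2 CPM, vertical axes) of the 10 genes in NTC (blue) and Adar1 KO (red) macrophages by baricitinib dose (uM, horizontal axes); points are libraries and lines join group means. At 10 uM the KO libraries lie between 6.43 and 7.33 for Gclm and between 6.28 and 6.58 for Hmox1, outside the NTC libraries in both cases.

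Nqo1, which encodes a quinone reductase, was scarce in most cells. BM progenitors had 4.85, 3.84 and 4.16 log2 CPM, BM monocytes 1.51, 0.64 and 1.08, and ER-Hoxb8 progenitors -0.49, -0.82 and 3.19. BM progenitors were above all other libraries of their set. Neither comparison passed, at -3.21 log2 for monocytes (SE 1.25, adjusted p = 0.111) and -3.66 log2 for ER-Hoxb8 progenitors (SE 1.25, adjusted p = 0.0516). The former passed in 3 of 13 alternatives, with the 2 groups alone (0.000552), with log2(CPM + 1) (0.0242) and without ER-Hoxb8 progenitors replicates 1 and 2 (0.0391), in a range of 0.000552 to 0.315. The latter passed in 3 of 12, without ER-Hoxb8 progenitors replicate 3 (adjusted p = 0.00664), with log2(CPM + 1) (0.0144) and with the replicate block (0.0316), in a range of 0.00664 to 0.652. In the brain set, BMD macrophages had 2.10, 2.41 and 4.51 log2 CPM, ER-Hoxb8 macrophages -2.28, 0.06 and -0.04, and BMD MLCs -0.93, -0.40 and 0.17 (lowest, median, highest). BMD macrophages were apart from both. The fitted values of -3.44 log2 for BMD MLCs and -3.76 log2 for ER-Hoxb8 macrophages, each over BMD macrophages, are given without a test. Nqo1 would have missed the filter of the brain set without the 3 BMD macrophage libraries. The others above 1 CPM were ER-Hoxb8 macrophages replicate 2, BMD MLCs replicate 6 and ER-Hoxb8 MLCs replicate 4. Nqo1 stood above 1 CPM in 8 of 12 libraries of the bone marrow set, in 6 of 27 of the brain set and in 0 libraries of the edited, sgRNA 2 and baricitinib sets, where it was not tested. Low levels there are limited by depth and do not show absence.

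**Figure D4:**
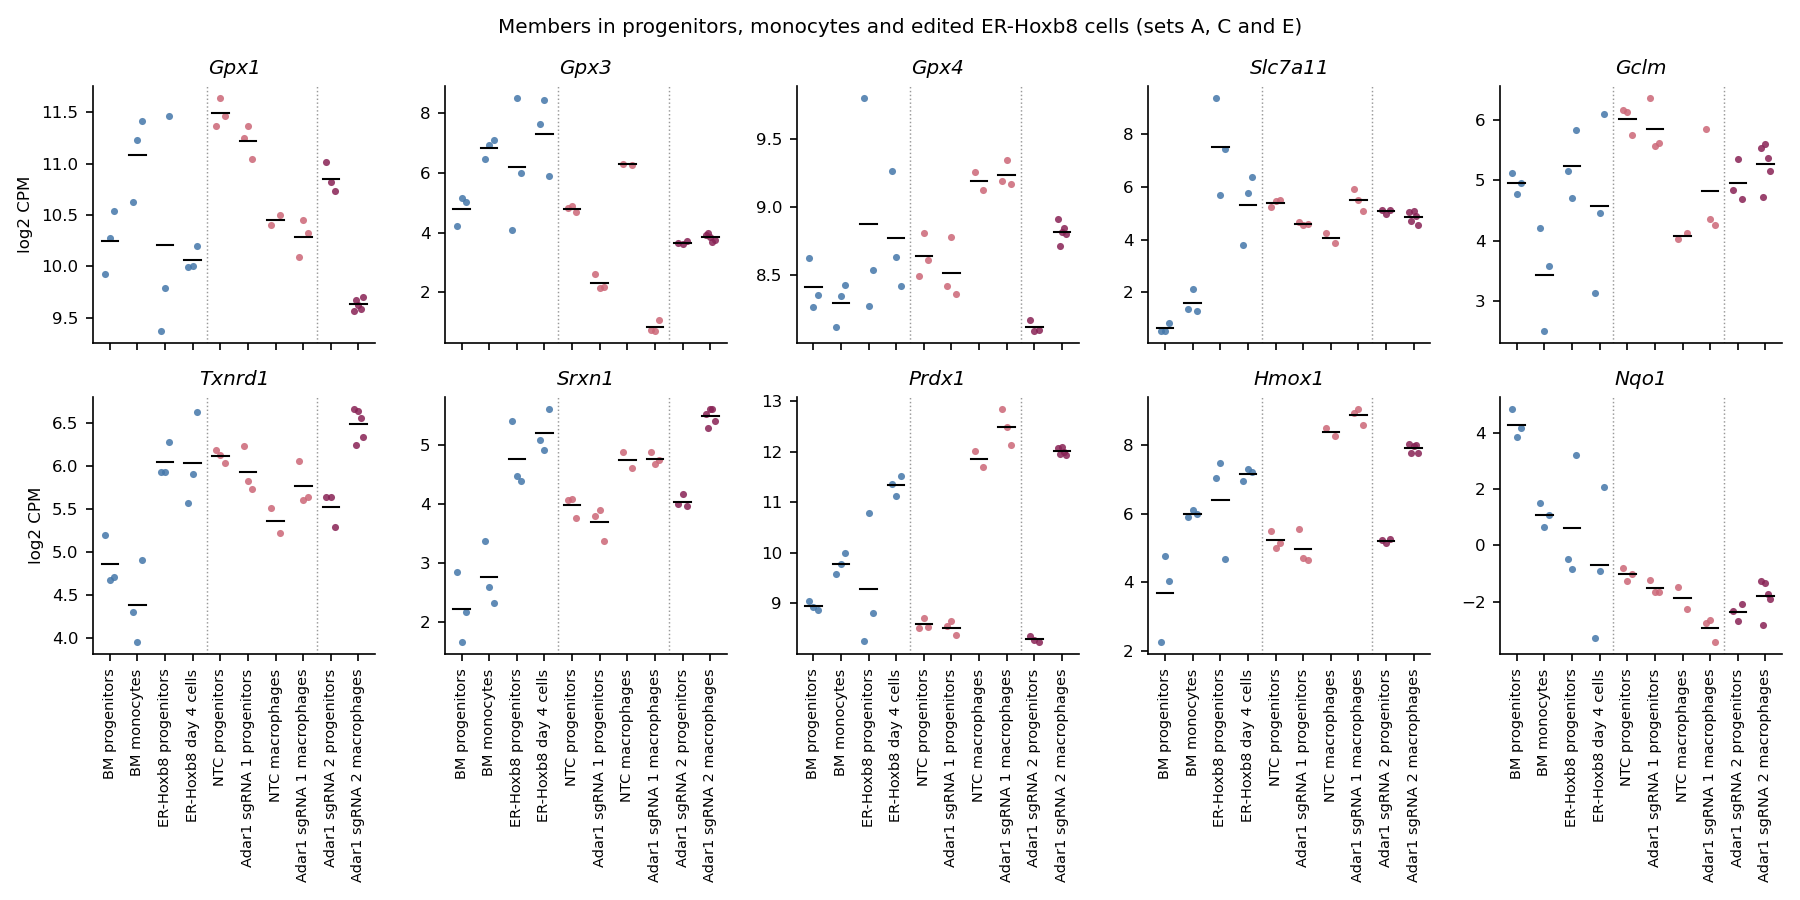
Levels (log2 CPM, vertical axes) of the 10 genes in the bone marrow, edited and sgRNA 2 sets, divided by dotted lines because levels are not comparable between sets; points are libraries and bars are group means. Slc7a11 lies between 0.54 and 0.86 in BM progenitors and between 5.69 and 9.37 in ER-Hoxb8 progenitors.

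Counted over the group, a gene passed at an adjusted p below 0.05 in limma, with the p-values adjusted over all genes tested. These p-values cover only the spread between the libraries at hand, which may be technical in part, although the study names the replicates of the bone marrow and brain sets as biological and those of the baricitinib cultures as independently differentiated. In the bone marrow set all 10 genes were tested. In the brain set the counts are over 9, since Nqo1 would have missed the filter there without the BMD macrophages and is given without a test. In the edited, sgRNA 2 and baricitinib sets 9 were tested, all but Nqo1, and the counts there are over 8, since Gpx3 is left out wherever the macrophages of its selection enter. Only the comparison between progenitors of the edited set is counted over 9.

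In BM monocytes over BM progenitors 1 of 10 genes was higher, beside 6.96% of all 12134 genes tested, and 0 lower, beside 6.79%. The median was 0.68 log2 against -0.09 for all genes, and the count of both directions together was 0 without BM progenitors replicate 1 or 3 or any single monocyte library and with no filter. It was 2 with log2(CPM + 1), where Nqo1 was added as lower, and 3 without ER-Hoxb8 progenitors replicate 2, where Gpx3 and Prdx1 were added as higher. Without their replicates 1 and 2 (which leaves that group 1 library) it was 5, with Gpx1, Gpx3 and Prdx1 added as higher and Nqo1 as lower, and with the 2 groups fitted alone it was 6, with Gclm also lower. In ER-Hoxb8 over BM progenitors 4 of 10 were higher (Slc7a11, Srxn1, Hmox1 and Txnrd1), beside 11.3% of all genes, with medians of 0.82 and -0.08 log2. In day 4 cells over ER-Hoxb8 progenitors limma called 0 of 10, as it did 0 of all genes (0%), with 1135 genes at an unadjusted p below 0.05, and 2 of 10 without ER-Hoxb8 progenitors replicate 2. In ER-Hoxb8 over BMD macrophages it called 0 of 9, beside 0.348% of all genes higher and 1.62% lower, with 1086 genes at an unadjusted p below 0.05.

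In BMD MLCs over BMD macrophages 7 of 9 genes were lower, all but Gpx1 and Gpx3, beside 13.8% of all 12647 genes tested, and 0 higher, beside 16.9%, with a median of -2.41 log2 against -0.01. In ER-Hoxb8 MLCs over ER-Hoxb8 macrophages 6 of 9 were lower (Gpx3, Gpx4, Slc7a11, Txnrd1, Srxn1 and Prdx1), beside 18.1%, and 0 higher, beside 16.6%, with medians of -1.85 and -0.15 log2. The former count was 4 without BMD MLCs replicates 3 to 6 and 5 without BMD macrophages replicate 2 or 3 or BMD MLCs replicate 6. The neutrophil markers given above moved with the same comparisons. Macrophage markers were lower in MLCs than in macrophages of both sources, with no overlap. They summed to 3991 to 6278 against 6613 to 8636 CPM for BMD and 1738 to 5881 against 6241 to 9209 CPM for ER-Hoxb8 cells. Border macrophage markers were higher in BMD MLCs than in BMD macrophages (1888 to 3490 against 285 to 1344 CPM) and overlapped for ER-Hoxb8 cells. The part of all these markers in these counts was not tested.

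In BMD MLCs over microglia 1 of 9 was higher (Gpx3), beside 10.8%, and 0 lower, beside 9.54%. This count was 2 without BMD MLCs replicate 3 or microglia replicate 8 or 9, since Hmox1 passed as higher in the first and last of these cases and Txnrd1 as lower without replicate 8 (-1.17 log2, adjusted p = 0.0147, in a range of 0.0104 to 0.859). Txnrd1 also passed as lower with quantile normalization, with the replicate block and without microglia replicates 8 and 9. In ER-Hoxb8 MLCs over microglia 2 of 9 were higher (Gpx3 and Prdx1), beside 14.9%, and 0 lower, beside 18.9%, with 1 of 9 without ER-Hoxb8 MLCs replicate 1 and 3 of 9 without replicate 4. In ER-Hoxb8 over BMD MLCs 2 of 9 were higher (Txnrd1 and Prdx1), beside 6.87%, and 0 lower, beside 8.22%, and the libraries named above for Txnrd1 each brought this to 1. The test of the difference between the MLC changes passed for 1 of 9 (Prdx1), beside 2.18%.

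In sgRNA 1 over NTC progenitors 1 of 9 genes was lower (Gpx3), beside 0.639% of all 11119 genes tested. Gpx3 was chosen by its fall in macrophages of the same edited cells, so this count is not independent of that choice. In NTC macrophages over progenitors 4 of 8 were higher and 4 lower, beside 33% and 38.5% of all genes. With sgRNA 1, 5 of 8 were higher and 2 lower, beside 34.1% and 37.1%, and with sgRNA 2, 5 were higher and 1 lower, beside 39.6% and 41.5%. Prdx1, Hmox1, Srxn1 and Gpx4 rose and Gpx1 fell in all 3 of these comparisons. Border macrophage markers summed to 273 to 375 CPM in NTC progenitors and to 1886 and 2343 CPM in NTC macrophages. With sgRNA 1 they were 152 to 244 and 250 to 368 CPM. With sgRNA 2 they were 902 to 972 and 93.6 to 109 CPM. Erythroid markers were 479 to 764 CPM in progenitors of the edited set and at most 0.763 CPM in its macrophages. With sgRNA 2 they were 1.02 to 1.50 CPM throughout. Neuron markers (6 genes) summed to 10.1 to 19.8 CPM in sgRNA 1 progenitors and to 7.18 to 20.4 CPM in NTC progenitors. They reached at most 0.14 CPM in macrophages of the edited set and 0.144 CPM in sgRNA 2 progenitors. The part of these markers was not tested. At 10 over 0 uM baricitinib, 2 of 8 were higher and 1 lower in NTC macrophages, beside 5.77% and 7.81% of all 11339 genes tested. The total of 3 was 1 without NTC replicate 3 at 0 uM and 0 without NTC replicate 1 at 10 uM. In KO macrophages 3 were higher and 3 lower, beside 33.5% and 31.6%.

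**Figure D5:**
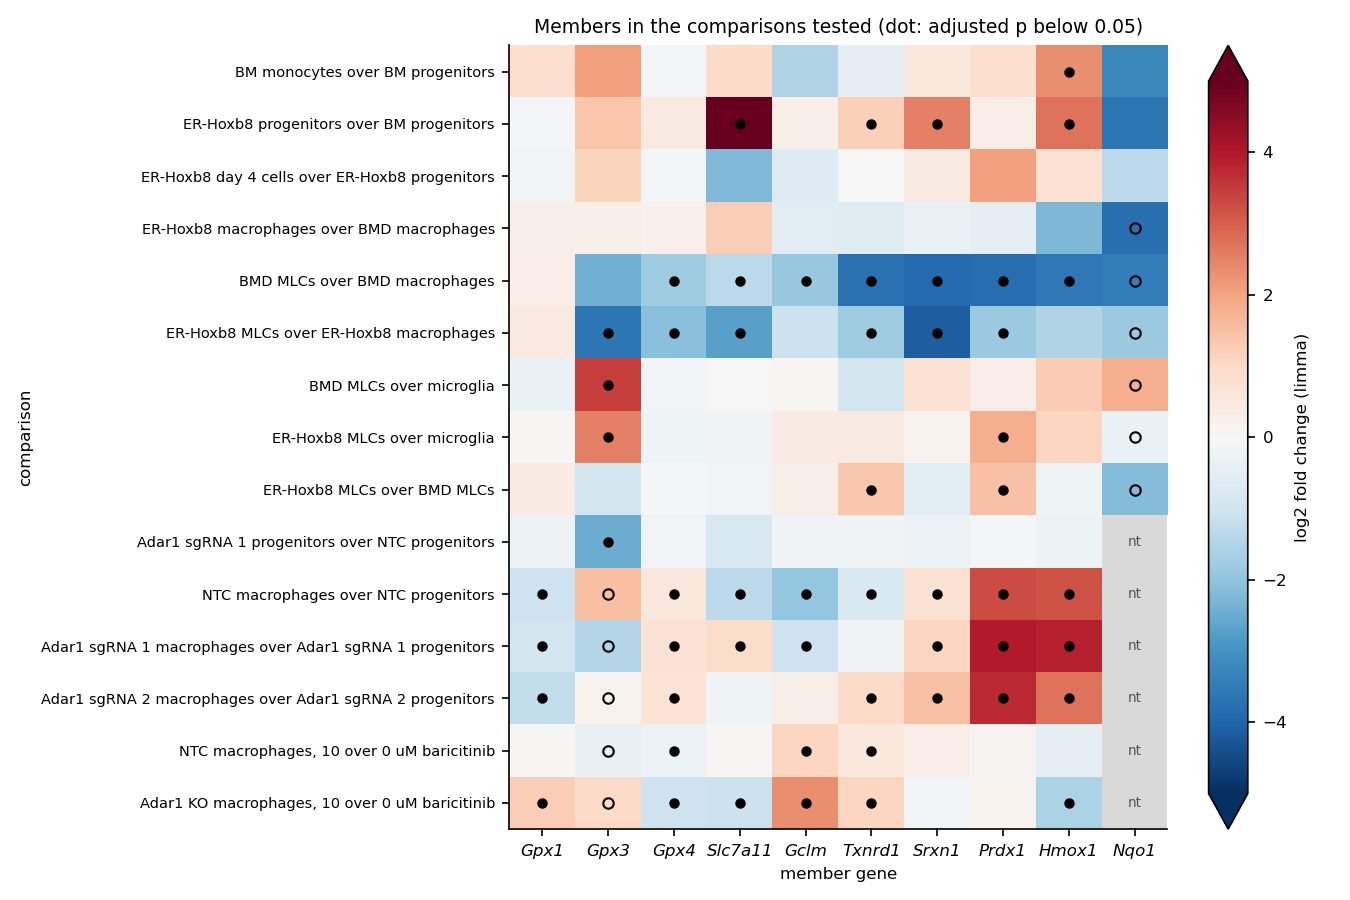
Fitted log2 fold change (colour) of the 10 genes in 15 comparisons; filled dots mark an adjusted p below 0.05, open circles mark values given without a test (Gpx3 where the macrophages of its selection enter, Nqo1 in the brain set), and nt marks Nqo1 where it was not tested. Slc7a11 has the largest value, 6.84 in ER-Hoxb8 over BM progenitors, and 7 genes are marked as lower in BMD MLCs over BMD macrophages.

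Regulators of the NRF2 response differed among themselves. Nfe2l2, the gene for NRF2 itself, rose from progenitors to macrophages by 2.30 log2 with NTC (SE 0.14, adjusted p = 5.09e-08), 2.52 log2 with sgRNA 1 (SE 0.13, adjusted p = 8.62e-09) and 1.91 log2 with sgRNA 2 (SE 0.04, adjusted p = 1.93e-11). In the same order, Bach1 rose by 1.41, 0.56 and 0.80 log2 (adjusted p = 5.62e-05, 0.0137 and 0.000173), and Keap1 gave -0.45, -0.07 and 0.04 log2 (adjusted p = 0.045, 0.735 and 0.754). In KO macrophages at 10 over 0 uM baricitinib, Nfe2l2 changed by -0.90 log2 (SE 0.12, adjusted p = 1.55e-07), Keap1, the gene for its inhibitor, by -1.61 log2 (SE 0.26, adjusted p = 4.66e-06), and Bach1, the gene for the repressor, by -1.40 log2 (SE 0.23, adjusted p = 5.47e-06). In NTC macrophages Bach1 changed by -0.75 log2 (SE 0.24, adjusted p = 0.0386), and Nfe2l2 (-0.28 log2, adjusted p = 0.135) and Keap1 (-0.41 log2, adjusted p = 0.357) did not pass. As a description, the difference between KO and NTC was -0.62 log2 for Nfe2l2, -1.20 for Keap1 and -0.64 for Bach1. Levels of transcripts do not measure the stability of NRF2, which KEAP1 controls.

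Around the 10 genes, 8 lists of 77 further genes of glutathione, thioredoxin, selenium, heme, iron and NADPH metabolism were followed. In ER-Hoxb8 over BM progenitors 16 of 71 tested were higher and 10 lower, beside 11.3% and 14.3% of all genes, with the ferritin light chain Ftl1 at 3.58 log2 and the peroxidase Gpx7 at -6.07 log2. In BM monocytes over BM progenitors 7 were higher, beside 6.96% of all genes, among them the microsomal transferase Mgst1 at 3.02 log2, and 11 lower, beside 6.79%, among them the iron exporter Slc40a1 at -4.46 log2. In day 4 cells over ER-Hoxb8 progenitors 0 of 71 were called by limma, and in ER-Hoxb8 over BMD macrophages 1 of 69, beside 0.348% higher, Mgst2 at 5.01 log2 (adjusted p = 0.0154).

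In BMD MLCs over BMD macrophages 6 of 69 genes of the lists were higher and 25 lower, beside 16.9% and 13.8% of all genes, shares that also stand beside each list. By list, 5 of 10 glutathione transferases were lower and 1 higher, 6 of 13 thioredoxin, dismutase and catalase genes were lower and 1 higher, 6 of 9 heme and iron genes were lower and 1 higher, and 5 of 7 NADPH genes were lower. Of the rest, 1 of 7 glutathione synthesis genes was lower, 2 of 9 NRF2 regulators were lower and 2 higher, 1 of 13 selenoprotein genes was higher, and the 1 other glutathione peroxidase tested was not called. Gstm2 changed by -5.93 log2 and Me1, a source of NADPH, by -4.37 log2, while Hp (haptoglobin, 7.33 log2) and Nfe2 (5.39 log2) were the largest rises. In ER-Hoxb8 MLCs over ER-Hoxb8 macrophages 4 were higher and 26 lower, beside 16.6% and 18.1%, with Gstm2 at -7.37 log2 and Gstm1 at -5.68 log2 and, upward, Sepw1 at 2.03 log2 and Glrx at 2.01 log2.

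Against microglia, 18 of 69 were higher in BMD MLCs and 5 lower, beside 10.8% and 9.54% of all genes, with Cd163 at 6.32 log2 and Mgst1 at 4.53 log2. In ER-Hoxb8 MLCs 16 were higher and 14 lower, beside 14.9% and 18.9%, with Mgst1 at 3.36 log2 and Slc40a1 at -3.91 log2. In ER-Hoxb8 over BMD MLCs 5 were higher and 5 lower, beside 6.87% and 8.22%, with thioredoxin Txn1 at 2.17 log2 and Cd163 at -5.76 log2. The difference between the MLC changes passed for 1 gene upward and 2 downward, beside 2.18% and 1.05%, which were Txn1 (2.45 log2, adjusted p = 0.00259), Mgst2 (-6.11 log2) and Idh1 (-2.08 log2).

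In sgRNA 1 over NTC progenitors, limma called 0 of 69 genes of the lists higher (732 of all genes had an unadjusted p below 0.05) and 2 lower, beside 0.279% and 0.639% of all genes, Gstm5 at -1.21 log2 (adjusted p = 0.00486) and Gstm2 at -1.09 log2 (adjusted p = 0.017). From progenitors to macrophages 23 of 69 were higher and 27 lower with NTC (beside 33% and 38.5% of all genes), 28 higher and 22 lower with sgRNA 1 (34.1% and 37.1%), and 32 of 68 higher and 22 lower with sgRNA 2 (39.6% and 41.5%). Glutathione reductase, Gsr, changed by -5.79 log2 with NTC, -2.76 log2 with sgRNA 1 and -2.19 log2 with sgRNA 2. Sepp1, the plasma selenium carrier, rose by 5.97 log2 with NTC, and the ferritin heavy chain Fth1 by 5.58 log2 with sgRNA 1 and 4.44 log2 with sgRNA 2.

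With 10 over 0 uM baricitinib, 0 of 69 were higher and 9 lower in NTC macrophages, beside 5.77% and 7.81% of all genes, with Hp at -1.69 log2 and Idh1 at -1.08 log2. In KO macrophages 15 were higher and 30 lower, beside 33.5% and 31.6% of all genes, and the counts of single lists stand beside the same shares. Among them 7 of 9 NRF2 regulators were lower and 1 higher, 5 of 9 heme and iron genes lower and 2 higher, 4 of 7 glutathione synthesis genes lower and 3 higher, 4 of 11 transferases lower and 1 higher, 4 of 13 thioredoxin genes lower and 3 higher, 3 of 7 NADPH genes lower and 1 higher, and 3 of 13 selenoprotein genes lower and 4 higher. Cd163 rose by 2.44 log2 and Sephs2, which makes the selenium donor, by 1.84 log2, and the small MAF gene Mafk changed by -3.16 log2 and the transferrin receptor Tfrc by -2.86 log2.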

How the data were processed

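Bulk RNA sequencing of 92 mouse libraries was analysed from the deposited gene table. The authors quantified reads with kallisto 0.46.0, summed transcripts to genes with tximport, scaled libraries with edgeR's TMM method and deposited log2 CPM values. The labels give GRCm39 as the build. Of 29957 entries, 1 without a gene name, which held 0.0023 to 0.0584% of a library, was left out. No counts were used here, and every library entered a fit except NTC macrophages replicate 2, which has no other library to be compared with.

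The lowest value of a library is set by the prior count and the mean library size, and it divided the libraries into 6 sets (12 bone marrow, 27 brain, 11 edited, 8 sgRNA 2 and 33 baricitinib libraries, and NTC macrophages replicate 2 alone). With an assumed prior count of 2, estimated mean depths were 40.6, 24.5, 21.5, 23.6, 13.7 and 17.1 M reads in the same order. At 1 CPM such depths give few reads, and values below it are imprecise. The depth of single libraries is not known.

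Groups were taken from the sample labels. Within each set with replicates, limma 3.58.1 in R 4.3.3 fitted group means to the log2 values with an empirical Bayes variance trend. Genes above 1 CPM in at least 3 libraries (6 in the brain set) were tested, which left 12134, 12647, 11119, 10776 and 11339 genes in the bone marrow, brain, edited, sgRNA 2 and baricitinib sets. P-values were adjusted over all of these by the method of Benjamini and Hochberg, and an adjusted p below 0.05 is called. There were 15 comparisons of 2 groups and 2 differences between changes, of which that between KO and NTC macrophages is given as a description. The procedure was tested on simulated data with known shifts. Tables were handled in Python 3.11.15 with numpy 2.4.6 and pandas 2.3.3.

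The 10 genes, the 8 pathway lists and the 10 marker lists were chosen with earlier results from these data known. A further marker list planned at the start was left out. Where a gene of a list is named in the text, it is among the 2 called genes with the largest changes in its direction, or it is followed across comparisons. Gpx3 was not tested where NTC or Adar1 KO macrophages enter, and the text gives no test for any gene between these 2 kinds of macrophage or for the difference between their responses to baricitinib, which holds the same contrast on which Gpx3 was selected. Replicate numbers were checked for pairing by correlating deviations from group means over all genes. Same-numbered libraries gave r of 0.226, 0.372 and 0.426 for day 4 cells with ER-Hoxb8 progenitors. The values were 0.344, 0.159 and 0.215 for sgRNA 1 with NTC progenitors, and 0.218, 0.176 and -0.024 for BM monocytes with BM progenitors. For ER-Hoxb8 MLCs with microglia, which come from different mice, r reached 0.304. The labels do not say whether same-numbered libraries share a mouse or a line. The main fits were unpaired, and the replicate block was an alternative.

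Alternatives were quantile normalization, log2(CPM + 1), no filter, a fold limit of 2 on the log2 scale, a replicate block, a fit of the 2 groups alone, subsets of MLC and microglia libraries, and each library left out in turn. Exclusions of libraries with unusual markers or low correlation were added after the data had been seen.

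Several limits apply to these values. Bulk levels mix cells and levels per cell. Sets cannot be compared in level, and a set may also be a batch. Replicates may be cultures or mice. MLCs and cultured macrophages differ in environment, sort and mixture at once. Guides came as pools, so unedited cells may remain, and the edited share was not measured here. Transcript levels of NRF2 targets do not measure glutathione, peroxides or protein. Nqo1, which would have missed the filter of the brain set without the BMD macrophages and is given there without a test, was near the lowest measurable level in 3 sets.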

Additional observations from a re-analysis of the deposited data

Results flagged for a closer look

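A library was noted when it lay far from the rest of its group by Dixon's criterion, tried in 70 groups of 4 to 10 libraries. Chance gives about 1 in 20, and 4 stood out. Gpx1 in NTC macrophages at 0.4 uM baricitinib replicate 4 was the lowest of 4 at 10.89 log2 CPM. Nqo1 was the highest of 6 in ER-Hoxb8 MLCs replicate 4 at 1.63 log2 CPM and the highest of 4 in NTC macrophages at 0.4 uM replicate 4 at -0.9 log2 CPM. Srxn1 in microglia replicate 8 was the lowest of 9 at -3.62 log2 CPM, the lowest value of that set.

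A change was noted when it differed between 2 kinds of cell in limma's test of the difference itself. Between ER-Hoxb8 and BMD cells, the change from macrophages to MLCs differed for Prdx1 by 1.96 log2. The difference between Adar1 KO and NTC macrophages in their response to baricitinib is not listed here, since it holds the contrast on which Gpx3 was selected.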

How the results depend on the processing

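Of 2351 fold changes of single genes recomputed under alternatives, 2145 stayed the same. These kept their direction and their call or, where called in neither fit, moved by less than their SE. Another 41 became called, and 108 were no longer called, some of them only because of the fold limit of 2 on the log2 scale. Of those called in neither fit, 56 moved by their SE or more. Among those called in either fit, 1 changed sign. The numbers below are genes of the group called, higher and lower together, with the main count first. Values given without a test (Nqo1 in the brain set, Gpx3 with the macrophages of its selection, and the difference between the KO and NTC responses to baricitinib) are not among them. Causes of these shifts were not tested.

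A limit of 2 on the log2 fold change lowered the count from 7 to 4 in BMD MLCs over BMD macrophages, from 2 to 1 in ER-Hoxb8 MLCs over microglia, from 2 to 0 in ER-Hoxb8 over BMD MLCs and from 1 to 0 for the difference between the MLC changes. In macrophages over progenitors it gave 2 with NTC (from 8), 2 with sgRNA 1 (from 7) and 2 with sgRNA 2 (from 6). At 10 over 0 uM baricitinib it gave 0 in NTC (from 3) and 1 in KO (from 6).

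With log2(CPM + 1) the count was 2 in BM monocytes over BM progenitors (from 1). Without a filter it was 0 in BM monocytes over BM progenitors, 2 in ER-Hoxb8 over BM progenitors (from 4), 1 in ER-Hoxb8 MLCs over microglia (from 2) and 1 in ER-Hoxb8 over BMD MLCs (from 2). Quantile normalization gave 3 in BMD MLCs over microglia (from 1), and the replicate block gave 2 there. Quantile normalization also took Prdx1 in KO macrophages at 10 over 0 uM baricitinib from 0.18 to 1.10 log2 and past the limit. Quantile normalization moved the median of all genes by more than 0.1 log2 only in ER-Hoxb8 over BMD MLCs (from -0.22 to -0.12).

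Fitting the 2 groups alone gave 6 in BM monocytes over BM progenitors (from 1), 2 in BMD MLCs over microglia (from 1), 1 in ER-Hoxb8 over BMD MLCs (from 2) and 2 in sgRNA 1 over NTC progenitors (from 1). Without microglia replicates 8 and 9 the count in BMD MLCs over microglia was 2. With only the GFPHox libraries (replicates 1 to 3) or only the WTHox libraries (4 to 6) of the ER-Hoxb8 MLCs, which differ in neutrophil and macrophage markers, the count was 1 for either kind over microglia and 1 for either kind over BMD MLCs.

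Of the exclusions chosen after the data had been seen, leaving out ER-Hoxb8 progenitors replicates 1 and 2, which were low in progenitor markers, left 1 library in that group, assumed to vary like the others. It gave 5 in BM monocytes over BM progenitors and 3 in day 4 cells over ER-Hoxb8 progenitors (from 0). It also changed Gpx1 in ER-Hoxb8 over BM progenitors from -0.04 to 1.21 log2, the 1 change of sign counted above, a value that rests on replicate 3 alone. Leaving out replicate 2 alone gave 3 in BM monocytes over BM progenitors. Without BMD MLCs replicates 3 to 6 the count was 4 over BMD macrophages (from 7), 1 in ER-Hoxb8 over BMD MLCs (from 2) and 0 for the difference between the MLC changes.

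With each library of the compared groups left out in turn, counts ran from 0 to 1 in BM monocytes over BM progenitors, 0 to 2 in day 4 cells over ER-Hoxb8 progenitors, 1 to 2 in BMD MLCs over microglia, 1 to 3 in ER-Hoxb8 MLCs over microglia, 1 to 2 in ER-Hoxb8 over BMD MLCs and 0 to 3 in NTC macrophages at 10 over 0 uM. In NTC macrophages over progenitors this left 1 macrophage library, again assumed to vary like the others. All other comparisons stayed within 1.5 times of their count.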
